A study of Mus musculus with 2 samples.

Results

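Across the bladder genome, 5938 accessible regions lay in intergenic sequence far from any protein-coding promoter, of 68360 accessible regions found in both libraries on chromosomes 1 to 19. Each had the midpoint of its peak outside every protein-coding gene body and more than 100 kb from every protein-coding transcription start site (TSS) of the GENCODE M21 annotation. Each was also a peak in both libraries, with at least 1 bp of overlap. The rule used position and the presence of a peak, not its height. These far regions joined 6020 of the 11684 far peaks of replicate 2 (51.5%) and 6030 of the 7971 far peaks of replicate 1 (75.6%). The other shared regions were 18326 nearer intergenic regions, which lay outside gene bodies and 1 to 100 kb from a TSS, 23767 in gene bodies and 20329 within 1 kb of a TSS.

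Chromatin was profiled by DNase-seq in urinary bladder tissue of female adult B6CASTF1/J mice, an F1 cross of the C57BL/6 and CAST strains, at 18 to 20 months of age. No treatment or engineered allele is labelled, and there is 1 group. Its 2 libraries are labelled biological replicates 1 and 2 and share a donor record, and nothing says whether they came from separate animals, so the spread between them may be technical. The tissue is a mixture, and more cells of a type or more open chromatin per cell cannot be told apart.

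DNase I cuts DNA that nucleosomes leave bare, so peaks of cuts mark accessible regulatory sequence: promoters, enhancers and insulators. A short protected stretch inside a peak, a footprint, can mark a bound protein. Genes for developmental transcription factors and signalling ligands are often flanked by wide gene deserts, in which distant enhancers act on them by looping. CTCF, a zinc-finger protein, marks many loop anchors, while AP-1 dimers of FOS and JUN, GATA, TEAD, FOX and SOX factors are known mainly at enhancers.

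The sequence of a strong member shows what such a region is made of. Each line below is the central 150 bp, on the plus strand of mm10, of a strong member that was free of masked repeats, had a central 36 bp found once in the assembly and held the motif named. No region was used again for another motif, so a line need not be the strongest member with its motif. Capitals mark the matches to that motif on either strand, and each name is that of the nearest protein-coding gene. The letters searched were TGANTCA for AP-1, CCNCNCCC for KLF/SP, AGATAA for GATA factors, GGAATG for TEAD, TGTTTAC for FOX, AACAAT for SOX and TTCCNGGAA for STAT, with the longer CTCF consensus known by its name. None of these sets of letters contains another, but matches can overlap and a window can match several motifs.
Gm31371 CTCF, chr8:20122156-20122305: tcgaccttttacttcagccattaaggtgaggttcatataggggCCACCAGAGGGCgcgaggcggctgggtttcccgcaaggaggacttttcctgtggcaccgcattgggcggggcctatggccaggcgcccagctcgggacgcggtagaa
Atp23 AP-1, chr10:126511636-126511785: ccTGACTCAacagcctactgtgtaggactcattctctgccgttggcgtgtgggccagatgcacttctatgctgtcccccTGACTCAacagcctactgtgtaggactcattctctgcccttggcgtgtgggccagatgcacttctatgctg
Tprg KLF/SP, chr16:25059306-25059455: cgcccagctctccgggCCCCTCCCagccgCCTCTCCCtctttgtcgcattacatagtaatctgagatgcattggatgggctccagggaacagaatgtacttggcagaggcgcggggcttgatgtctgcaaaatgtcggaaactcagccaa
Prok2 GATA, chr6:99991206-99991355: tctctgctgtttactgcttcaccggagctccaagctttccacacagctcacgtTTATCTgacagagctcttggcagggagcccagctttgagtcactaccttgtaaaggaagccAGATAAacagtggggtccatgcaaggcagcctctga
Smim15 TEAD, chr13:107831326-107831475: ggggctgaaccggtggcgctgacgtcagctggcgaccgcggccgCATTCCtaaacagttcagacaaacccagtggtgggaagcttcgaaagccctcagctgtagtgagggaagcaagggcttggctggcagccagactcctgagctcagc
Btg1 FOX, chr10:96722556-96722705: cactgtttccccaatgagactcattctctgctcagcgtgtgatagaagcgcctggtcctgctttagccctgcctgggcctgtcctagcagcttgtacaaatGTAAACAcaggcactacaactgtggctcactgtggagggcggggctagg
Msx2 SOX, chr13:53639236-53639385: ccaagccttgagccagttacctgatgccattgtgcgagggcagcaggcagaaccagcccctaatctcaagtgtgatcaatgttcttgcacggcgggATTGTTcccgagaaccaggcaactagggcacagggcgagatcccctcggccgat
Usp24 STAT, chr4:106123176-106123325: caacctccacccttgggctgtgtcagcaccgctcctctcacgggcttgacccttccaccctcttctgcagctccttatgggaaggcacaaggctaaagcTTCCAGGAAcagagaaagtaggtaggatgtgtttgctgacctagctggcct

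The Gm31371 region had a signal of 15.6 in replicate 2 and 11.8 in replicate 1, and a footprint lay on its CTCF match in both libraries. The Atp23 region, 389.6 kb from its TSS, carried 2 AP-1 matches, of which 1 was under a footprint in each library. The 2 matches sit in nearly identical neighbouring stretches of the printed window, and any effect of this on read placement was not tested. The signal of the Atp23 region was 7.22 in replicate 2 and 8.65 in replicate 1. The 2 KLF/SP matches near Tprg were both under footprints in both libraries. The TEAD region named for Smim15 lies within 100 kb of the start of Zswim6, a protein-coding gene in the RefSeq annotation only. No footprint covered the GATA, SOX or STAT matches shown, although each of these regions held 2 or more footprints in each library. A match is a stretch of letters and not a site shown to be bound.

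Far regions were sparse. They numbered 8.06 per Mb over 736.9 Mb of sequence that satisfied the rule, against 28.1 per Mb in nearer intergenic sequence, 25.1 in gene bodies and 330.4 within 1 kb of a TSS. Density fell with distance, with 14.7 per Mb at 100 to 200 kb, 8.84 at 200 to 400 kb, 4.00 at 400 to 800 kb and 1.15 beyond 800 kb. All far peaks of each library, shared or not, fell along the same order, to 4.14 per Mb in replicate 2 and 2.55 in replicate 1 beyond 800 kb. The median member lay 194.4 kb from its nearest TSS, the middle 50% between 137.1 and 304.7 kb. Of all members, 3137 (52.8%) lay upstream of that TSS and 2801 (47.2%) downstream.

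**Figure D1:**
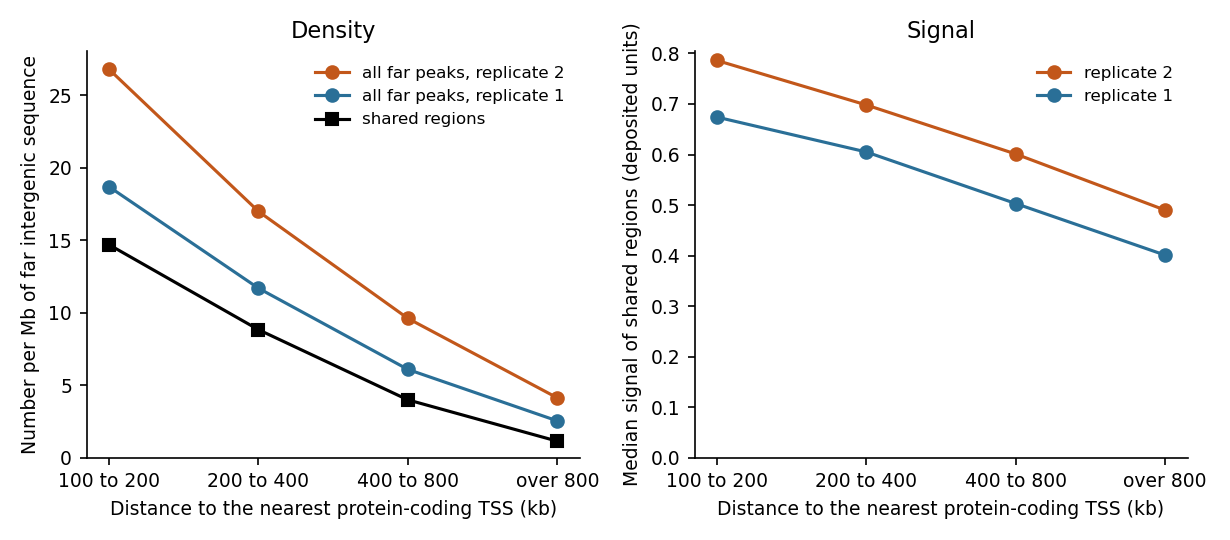
Left, shared far regions (black) and all far peaks of each library per Mb of far intergenic sequence, in 4 bands of distance from the nearest protein-coding TSS; right, median signal of the shared regions in each library. Density fell to 1.15 shared regions per Mb beyond 800 kb, and median signal was lowest in that band in both libraries.

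The farthest member lay 2558.8 kb from any TSS, nearest to Pcdh9, at chr14:91326807-91327000, with a signal of 0.256 in replicate 2 and 0.333 in replicate 1. A fully masked region 2464.4 kb from Pcdh20 had 0.230 and 0.460, and one 2194.8 kb from Pik3c3 had 0.398 and 0.341. All 3 were below the median of members in both libraries. Just inside the threshold, members 100007 bp from Cd180, 100017 bp from Ralgapa2 and 100033 bp from Slc30a5 had signals of 2.09, 1.57 and 0.672 in replicate 2 and 1.41, 0.614 and 0.981 in replicate 1. Just outside it, regions 99968 bp from Irx4, 99948 bp from Msr1 and 99933 bp from Slc38a6 had signals of 2.16, 0.300 and 1.46 in replicate 2 and 1.69, 0.358 and 0.708 in replicate 1. These values are a description of the edge and were not tested.

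Only protein-coding genes entered the rule, so promoters of other genes were not avoided. In all, 303 members (5.1%, Wilson 95% interval 4.57 to 5.69%) lay within 1 kb of the start of a long noncoding RNA (lncRNA), against 5.46% of nearer intergenic regions. Moreover, 1173 members (19.8%) lay inside a noncoding gene, against 15.5% of nearer intergenic regions, and 950 of them were in a lincRNA. Gm14005 held 21, Pvt1, the lncRNA beside Myc, held 16, and 2610035D17Rik, a lncRNA beside Sox9, held 13. When every annotated gene counted, only 736 regions met the same rule. By RefSeq's annotation, 29 members (0.488%) lay within 1 kb of a protein-coding start and 309 (5.2%) lay inside or within 100 kb of a protein-coding gene.

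The clearest such case was Zswim6, which encodes a zinc-finger protein. GENCODE M21 types it as a processed transcript, and RefSeq types it as protein-coding. Members 0.157 and 0.557 kb from its start had signals of 9.40 and 3.80 in replicate 2 and 9.38 and 4.16 in replicate 1, and another 0.883 kb away had 1.36 and 1.47. Trerf1, a transcriptional regulator, and B3galt1, a glycosyltransferase, likewise had members within 1 kb of a RefSeq start.

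Far regions were the weakest class. Their median signal, a cut count scaled per library by the authors, was 0.725 in replicate 2 and 0.622 in replicate 1, or 0.674 ± 0.0722 (SD, n = 2). The median count behind it was 82 in replicate 2 and 73 in replicate 1. Nearer intergenic regions had medians of 1.11 and 0.878 in the same libraries, gene bodies 0.981 and 0.827, and promoters 2.07 and 1.89. The order of the far and the other 3 classes was the same in both libraries, but with 2 libraries the smallest p an exact paired permutation test can give is 0.5, so no difference between classes was tested here. Within the far regions, median signal in the 4 distance bands was 0.786, 0.698, 0.601 and 0.490 in replicate 2 and 0.674, 0.605, 0.503 and 0.401 in replicate 1.

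**Figure D2:**
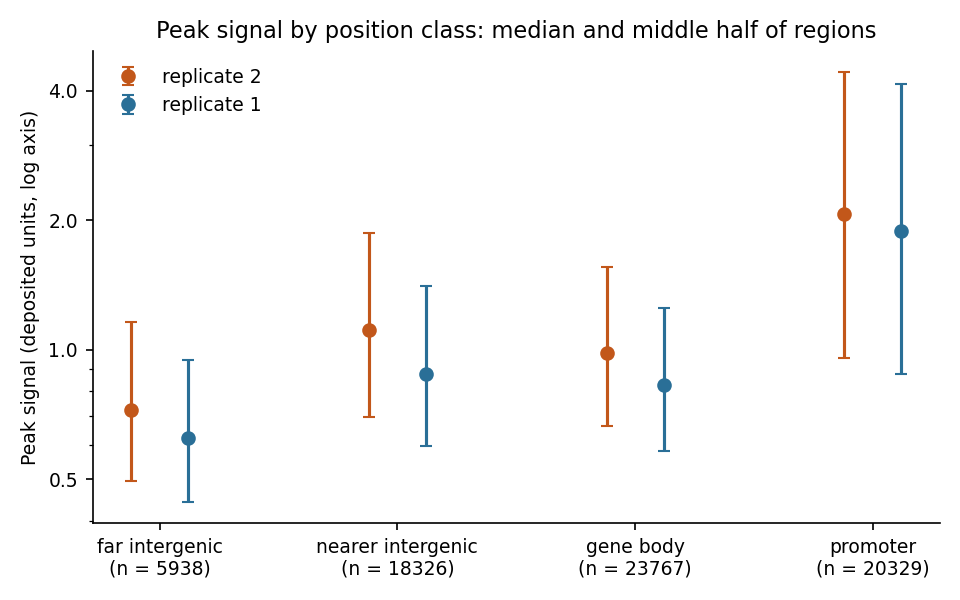
Peak signal of shared regions by position class (log axis); points are medians and bars span the middle 50% of regions in each library. The far regions sit lowest in both libraries, with medians of 0.725 in replicate 2 and 0.622 in replicate 1, and the bars overlap those of the nearer intergenic and gene body classes.

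Fewer far regions held a footprint, and that share followed their signal. At least 1 footprint lay in 84.2% of far regions in replicate 2 and 77.3% in replicate 1, against 90.2% and 86.1% of nearer intergenic regions. All shared regions were split by mean signal into 4 bins of equal size. Far regions of the weakest bin had 71.1% in replicate 2 and 60.7% in replicate 1, against 72.6% and 63.4% of nearer intergenic regions. Those of the strongest bin had 99.7% and 99.5%, against 99.7% and 99.6%. Of the far regions, 48.9% were in the weakest bin and 6.43% in the strongest, against 25.2% and 18.4% of the nearer ones.

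Footprints were short, with a median of 9 bp in either library. Of the 11939 footprints in members in replicate 2, 39% met one of the other library, against 47.5% of the 10197 of replicate 1. A footprint was present in both libraries in 68.4% of members and in neither in 6.87%. The shorter, stricter peak list of the authors held 76% of members in replicate 2 and 59.5% in replicate 1, against a background of 81% and 69.1% over all shared regions. Both shares were below background, as was signal, but that background includes promoters, at 89.4% in replicate 2 and 84.1% in replicate 1. Gene body regions, at 75.8% and 60.9%, were close to the far regions. In the weakest bin of signal, far regions had 57.1% and 30.8%, above the 47.1% and 24.4% of nearer intergenic regions. In the next bin far regions had 89.3% and 77.5%, above the 80.3% and 58.9% of nearer intergenic regions.

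The strongest members were a mixed set. At the top was chr17:39846781-39846920, with 62.6 in replicate 2 and 37.3 in replicate 1, which RefSeq annotates as Rn18s-rs5, an 18S ribosomal RNA sequence, and whose central 36 bp occur 2 times in the assembly. Next was chr3:5860361-5860530, at 29.2 and 19.6, whose central 36 bp occur 8 times. Whether reads from other copies fell on these peaks was not tested. Over all members, the central 36 bp occurred more than once in 96 (1.62%), and in 5 of the 100 strongest.

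Rank 3 was the Gm31371 CTCF region and rank 4 the Zswim6 promoter. Rank 5 was a peak 2140.3 kb from Cdh20, chr1:102628141-102628360, with 12.3 in replicate 2 and 6.39 in replicate 1, a central sequence found once and none of the 28 motifs. Ranks 6, 7 and 9, at 8.33, 9.07 and 7.03 in replicate 2 and 9.08, 7.34 and 5.88 in replicate 1, lay 0.305, 0.258 and 0.102 kb from the starts of the lncRNAs Gm20732, A230028O05Rik and Gm26901. The AP-1 region near Atp23 and a region near Arhgap12, at 6.27 and 6.57, made up the 10.

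This held beyond the first 10. Of the 100 strongest members, 27 lay within 1 kb of a lncRNA start and 30 were CpG-rich, meaning at least 55% GC with an observed to expected CpG ratio of at least 0.6. Among the 4938 members ranked below 1000, 4.37% lay at a lncRNA start and 1.74% were CpG-rich. Their median signals were 0.636 in replicate 2 and 0.554 in replicate 1, against 4.38 and 3.71 in the strongest 100. CTCF matches were most frequent at ranks 101 to 1000, in 11.6%, and AP-1 matches differed little with rank, at 16%, 16.9% and 18.7% from the strongest group down.

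In all, the far regions had a median GC content of 49.4%, against 51.7% in nearer intergenic regions, and 157 (2.64%) were CpG-rich, against 6.9%. Masked repeats took up at least 50% of only 136 members (2.29%), against 2.71% of nearer intergenic regions. Among all far peaks of a library, shared or not, the share was 4.81% in replicate 2 and 6.70% in replicate 1. The 136 shared members had median signals of 0.557 in replicate 2 and 0.546 in replicate 1.

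AP-1 letters were the most frequent of the 28 motifs in shared far regions. The consensus sequences differ in length and in how many letters are fixed, and a rate expected by chance was not computed. The shares of different motifs are therefore not like measures. In the central 150 bp, its letters were found in 1091 members (18.4%, Wilson 95% interval 17.4 to 19.4%), against 16% of nearer intergenic regions and 13% of all shared regions. That rank did not hold over all far peaks of each library, of which AP-1 was matched in 15.2% in replicate 2 and 16.5% in replicate 1, KLF/SP in 15.2% and 17.9%, and the E-box CAGCTG in 14.5% and 16.9%. In shared regions TEAD, the partner of the Hippo pathway's YAP, was matched in 11.5% against 10.1% and GATA in 8.18% against 6.71%. SOX stood at 6.11% against 4.95%, FOX at 4.23% against 3.3%, IRF at 1.63% against 1.42%, GRHL, the grainyhead-like epithelial factors, at 2.81% against 2.46%, and STAT at 1.04% against 0.704%. Over all far peaks of replicate 1, GRHL was matched in 2.31%, against 2.4% of its nearer intergenic peaks. The intervals cover counting error only, and neighbouring regions are not independent.

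CTCF was matched in 323 members (5.44%, interval 4.89 to 6.05%), against 9.76% of nearer intergenic regions, a ratio of 0.557. KLF/SP, bound by Krüppel-like and SP factors, was found in 17.4% against 22.9%. Part of the KLF/SP difference moved with base composition, while the CTCF difference widened. When nearer intergenic regions were weighted to the GC content of the members, their share was 18.2% for KLF/SP, 16.9% for AP-1, 7.82% for GATA, 5.94% for SOX and 3.71% for FOX, and 10.5% for CTCF. It was 10.3% for TEAD, 2.65% for GRHL and 0.678% for STAT, whose difference also widened. For IRF it was 1.73%, above the 1.63% of far regions, so that direction turned. CTCF also moved with signal. In the weakest bin of signal it was matched in 2.65% of far and 2.73% of nearer intergenic regions, and in the strongest bin in 13.4% and 17.2%. GATA moved with signal as well. From the weakest bin up, it was matched in 9.6%, 7.88%, 6.31% and 3.93% of far regions. Nearer intergenic regions had 8.46%, 7.73%, 6.43% and 3.26% in the same bins, so the direction turned in bin 3.

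**Figure D3:**
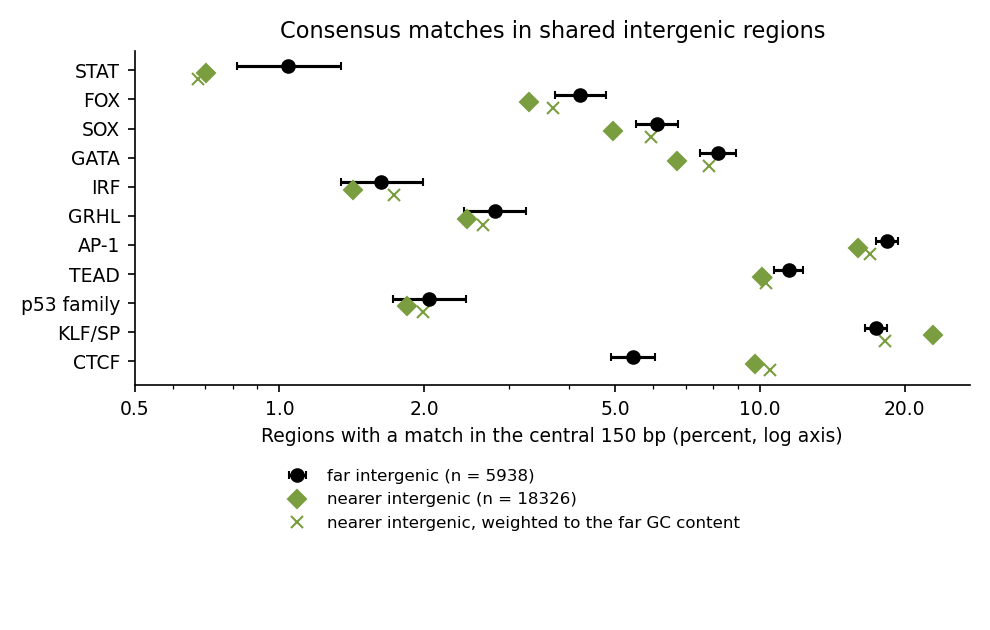
Share of shared regions with a consensus match in the central 150 bp (log axis), for far regions (black, bars are Wilson 95% intervals) and nearer intergenic regions as they are (diamonds) and weighted to the GC content of the far regions (crosses). CTCF stands at 5.44% of far regions against 9.76%, and the crosses for GATA, SOX, KLF/SP and FOX lie nearer to the far regions than the diamonds do.

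Rarer motifs were also counted. ETS letters, CCGGAAGT, were found in 0.269% of far and 0.469% of nearer intergenic regions. CRE letters, TGACGTCA, were in 0.269% and 0.447%, and NRF1 letters in 0.0505% and 0.142%. These factors are known mainly at promoters. Weighted to the GC content of the members, nearer intergenic regions had 0.326%, 0.356% and 0.089% in the same order. These shares were still above the far shares, but inside their Wilson intervals. The intervals were 0.166 to 0.437% for ETS and for CRE and 0.0172 to 0.148% for NRF1. The p53 family consensus, which p63 of the basal urothelium also binds, was found in 2.05% of far and 1.84% of nearer intergenic regions. The smooth muscle consensus sequences of SRF, the CArG box, and of MEF2 were found in 0.775% and 0.846% and in 0.185% and 0.246%. DR1, a consensus of PPAR and HNF4 receptors, was in 3 members and no nearer intergenic region, and nuclear factor I, NFI, was in 9 members (0.152%), against 0.104%.

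Footprints covered some motifs far more than others. Of the CTCF matches in members, 92.9% lay under a footprint in replicate 2 and 69.2% in replicate 1, while footprints covered 13.5% and 10.2% of all window bases. In nearer intergenic regions the CTCF shares were 97.7% and 86%. KLF/SP matches in members were covered in 32.5% and 26.9% of cases, AP-1 matches in 24.2% and 20.2%, TEAD in 19.6% and 14.1% and GATA in 14.9% and 14.1%. FOX stood at 8.14% and 7.75%, below the cover of the windows as a whole. A match counted when it overlapped a footprint, and a longer stretch does so more easily than a single base. The shares of matches and of bases are therefore not like measures. Factors that leave DNA quickly often give weak footprints, so a low share is no measure of binding.

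The members were spread unevenly over deserts. Far sequence formed 1720 stretches, of which 1157 (67.3%) held a member, and 192 of them held 50% of the members. In deserts of at least 500 kb of sequence, of which there were 449, the median density was 3.23 per Mb and the highest 62.3. In 63 of these 449 no member was found, although only 3 had no far peak in either library. The longest without a member was the 3412.6 kb between Stim2 and Pcdh7, a protocadherin gene, with 10 far peaks in replicate 2 and 4 in replicate 1, none of them shared.

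The desert with most members lay between Med13l and Tbx3, a T-box factor of mesenchyme, at chr5:118765439-119570668. It held 42 members, 52.2 per Mb, with summed signals of 48.9 in replicate 2 and 51.4 in replicate 1. Next came the desert between Myc and Gsdmc, with 38 members over 1621.3 kb, at 37.9 and 29. The desert before Nfe2l3, a CNC family bZIP factor, had 36 members in 578.2 kb, the highest density of the longer deserts, at 50.4 and 45.4. By RefSeq's annotation a protein-coding gene, Gm38821, starts within this stretch, with a member 0.757 kb from its start. The desert upstream of Klf4 had 32. That between Opa1 and Hes1, a Notch target and repressor, had 29 in 278.3 kb, or 104.2 per Mb. The 10 richest deserts held 5.46% of members in 1.1% of far sequence. They were picked by their number of members, so these shares are a description only.

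Within deserts members were spaced unevenly. When members up to 12500 bp apart were joined, 2956 (49.8%) stood alone and 794 (13.4%) fell into 167 runs of at least 4. Members in such runs had medians of 0.972 in replicate 2 and 0.908 in replicate 1, against 0.645 and 0.537 for those alone, and a footprint in 88.5% and 84.8%, against 83.1% and 73.5%. The longest run, 13 members over 47.4 kb, lay at chr16:29775863-29823235, nearest to Opa1 in the Hes1 desert. Its members ranged between 0.477 and 3.83 in replicate 2 and between 0.588 and 4.40 in replicate 1, and none had a CTCF match. A run of 9 members within 10.6 kb, 254.0 to 264.4 kb upstream of Nfe2l3, held the strongest member of that gene, at 4.98 and 5.62.

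Nearest genes were read as positions only, since the nearest gene need not be the target. Of 2745 protein-coding genes that were the nearest to some far sequence, 1582 (57.6%) had a member. Among these the median was 2 members, and 131 genes had at least 10. Myc, the growth-promoting bHLH factor, had most, with 34, then Med13l, a Mediator kinase module subunit, Pik3r1, a regulatory subunit of PI 3-kinase, and Sox9 with 28 each. Tbl1xr1, a co-repressor subunit, had 27, Nfe2l3 and Zfp36l1, which destabilises AU-rich mRNAs, had 24. Gm12728 and Zfp608 had 22 each, Meis1, a TALE homeobox factor, and Tbx3 had 21 each and Cited2, a transcriptional co-regulator, had 20. Of these 12 genes Zfp36l1 had the highest density, with 121.0 members per Mb of its 198.3 kb, against 8.06 per Mb for all genes.

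Urothelial transcription factors had members throughout. All 11 of the list's genes that were nearest to far sequence had a member, against the background of 57.6%. Their 101 members came to 23.4 per Mb, with a median of 26.7 over genes against 3.28 over all 2745. That median includes Ehf and Grhl2, whose far sequence was only 5.04 and 12.6 kb. The list was chosen with earlier results of these data known, so these values are a description. Sox9, a factor of progenitor cells in many epithelia, had 28. Gata3 and Klf4, regulators of urothelial and barrier epithelial differentiation, had 18 each, Klf5, needed for urothelial maturation, had 15 and Sox2 had 8. Foxa2 and Tfap2c had 4 each, Trp63, the p63 gene of basal cells, had 3, and Ehf, Grhl2 and Tfap2a had 1 each. The other 9 genes of the list were not the nearest to any far sequence.

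The members of these genes differed in reach and strength. The 18 of Gata3 all lay downstream, 128.3 to 1239.1 kb away. The strongest by mean signal, 1149.1 kb away at chr2:8729381-8729660, had 2.79 in replicate 2 and 3.71 in replicate 1, while another 257.8 kb away had 3.33 and 2.91. The 15 of Klf5 also lay downstream, 126.4 to 407.0 kb away, within the desert that follows the gene, and 7 held an AP-1 match. The strongest had 1.56 in replicate 2 and 1.45 in replicate 1. The 18 of Klf4 all lay upstream, and its strongest 2 had 2.39 and 3.22 in replicate 2 and 3.94 and 3.89 in replicate 1. Sox9 had 12 upstream and 16 downstream, up to 700.7 kb away, and 9 of its 28 held an AP-1 match. An AP-1 match was held by 7 of the 18 of Gata3, 3 of the 18 of Klf4, 4 of the 8 of Sox2 and 0 of the 4 of Foxa2. The share over all members was 18.4%, and outside this list Nfe2l3 had 1 of 24 and Meis1 1 of 21. A single region 112.4 kb from Grhl2 had 3.93 and 2.95.

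The strongest members of Gata3, Klf5 and Sox9, and of Tbx3 and Nfe2l3 from outside the urothelial list, are printed below. Each line is the central 150 bp on the plus strand of mm10, with the matches named in capitals. It shows which letters the strongest region nearest to each gene carries. Of the strongest members not printed, those of Klf4, Grhl2, Trp63, Foxa2 and Ehf held no AP-1 match. Those of Sox2, Tfap2a and Tfap2c did. The p53 family consensus is used by its name.
Gata3 AP-1, chr2:8729446-8729595: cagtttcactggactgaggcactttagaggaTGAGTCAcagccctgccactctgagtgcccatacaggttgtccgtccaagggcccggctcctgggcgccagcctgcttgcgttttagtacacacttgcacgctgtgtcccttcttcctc
Klf5 AP-1, chr14:99624806-99624955: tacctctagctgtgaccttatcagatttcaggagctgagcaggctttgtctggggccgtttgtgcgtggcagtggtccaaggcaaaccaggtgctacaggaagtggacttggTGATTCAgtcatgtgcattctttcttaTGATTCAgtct
Tbx3 AP-1, chr5:119167876-119168025: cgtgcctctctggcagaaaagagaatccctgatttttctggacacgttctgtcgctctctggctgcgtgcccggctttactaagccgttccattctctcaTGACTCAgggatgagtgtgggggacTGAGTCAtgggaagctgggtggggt
Sox9 p53 family, chr11:112987856-112988005: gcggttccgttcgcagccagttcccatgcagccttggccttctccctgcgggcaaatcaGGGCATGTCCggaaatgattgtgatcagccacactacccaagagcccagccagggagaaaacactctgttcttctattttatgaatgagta
Nfe2l3 KLF/SP, chr6:51172956-51173105: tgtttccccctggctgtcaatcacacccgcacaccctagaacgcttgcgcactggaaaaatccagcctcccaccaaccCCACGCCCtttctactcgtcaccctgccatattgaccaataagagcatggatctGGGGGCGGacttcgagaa

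AP-1 letters occurred 1 time in the Gata3 region and 2 times in each of the Klf5 and Tbx3 regions. A footprint lay on the Gata3 match in replicate 1 and not in replicate 2, and on none of the other AP-1 matches in either library. The p53 family match near Sox9 was under a footprint in replicate 2 only. Both KLF/SP matches near Nfe2l3 were under footprints in replicate 2 and 1 of them in replicate 1.

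**Figure D4:**
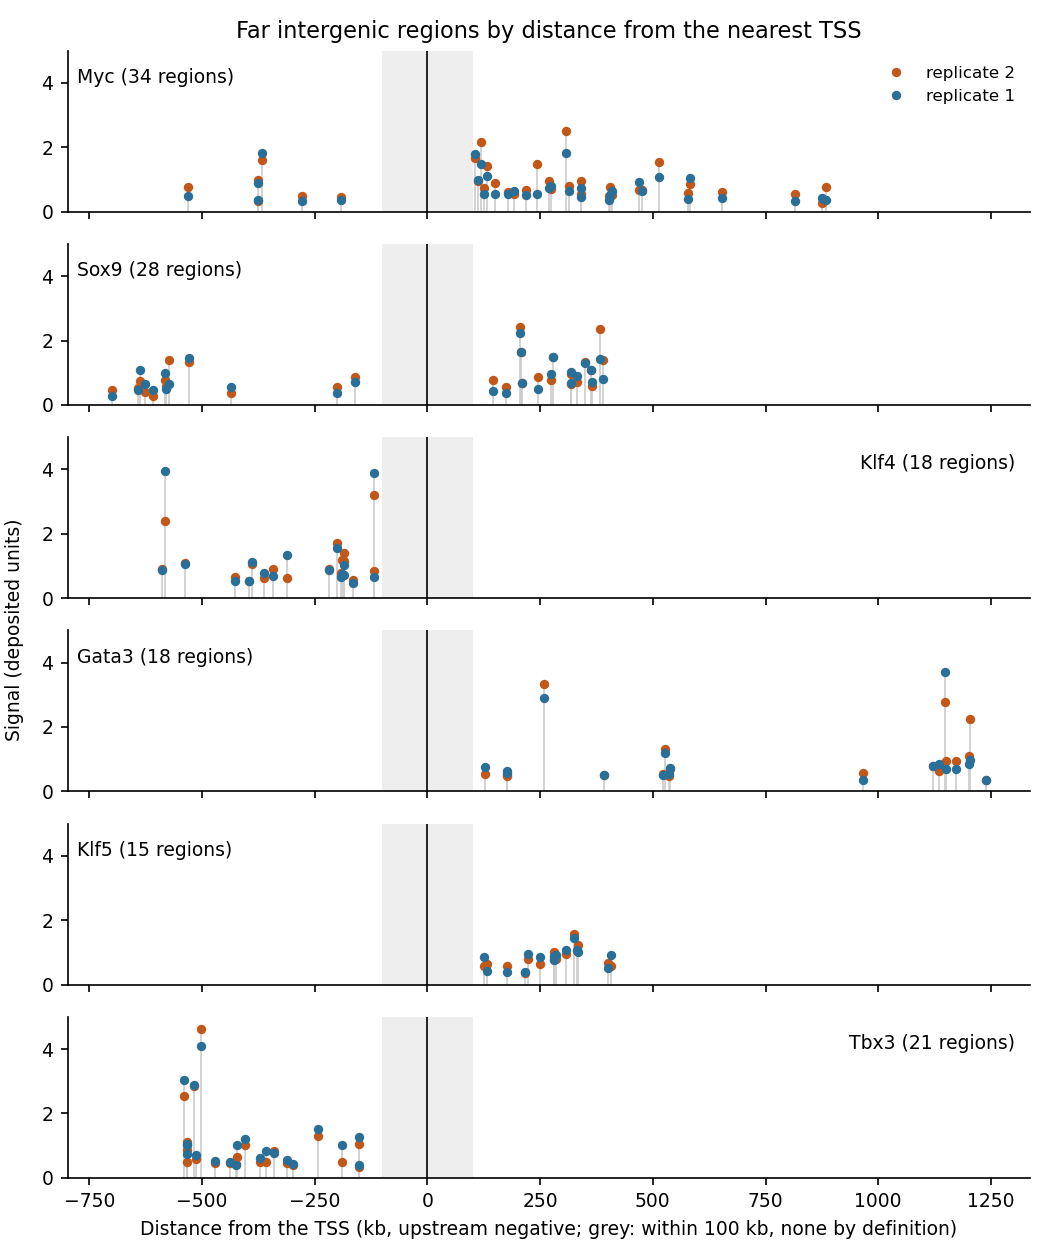
Far regions nearest to 6 genes by distance from the TSS (kb, upstream negative), with the signal in each library (points) and the higher of both (line); the grey band is excluded by the rule. Klf4 and Tbx3 have members upstream and Gata3 and Klf5 downstream, while Myc has 6 upstream and 28 downstream and Sox9 has members on both sides.

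Genes of the wall beneath the urothelium also had members. Over all genes nearest to far sequence, 57.6% had a member, at 8.06 per Mb. Of the mesenchymal transcription factors, 18 of 24 (75%) had a member, with 132 members at 14.4 per Mb. Meis1 and Tbx3 had 21 each, Nr2f2, an orphan nuclear receptor, 16, and Osr1, an odd-skipped factor of urogenital mesenchyme, 12. Prrx1, Twist2, Pbx3, Ebf3, Nfia and Nfib had none. The strongest member of Tbx3, 502.7 kb upstream, had 4.62 in replicate 2 and 4.08 in replicate 1. All 7 matrix genes nearest to far sequence had a member, 23 in all and 27.4 per Mb, of which 11 were upstream of Dcn, the gene of the collagen-binding proteoglycan decorin. The strongest of these had 5.21 and 4.26.

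Signalling ligands also had members at all 14 genes nearest to far sequence, against 57.6% of all genes. Their 77 members came to 19.8 per Mb, against 8.06. Inhba, an activin subunit, had 12, Tgfb2 11, Bmp2 10 and Bmp7 9. Shh, which basal urothelial cells send to the stroma, had 6, between 104.5 and 267.7 kb away, with a highest signal of 1.19 in replicate 2 and 1.68 in replicate 1. Of AP-1 and immediate early genes, 5 of 6 (83.3%) had a member, against 57.6% of all genes. Myc led with 34, Klf6 had 10 and Jun, a subunit of AP-1 itself, had 6, the strongest at 4.64 and 5.39. Egr2 had none.

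Smooth muscle genes had small numbers. All 5 that were nearest to far sequence had a member, against 57.6% of all genes, and their members numbered 12 in all. Pooled, these came to 5.88 per Mb, against 8.06 for all genes, while the median over genes was 7.37 per Mb, against 3.28. Chrm3, the muscarinic receptor that drives bladder contraction, and Myocd, the SRF co-activator, had 4 each, Mef2c had 2, and Chrm2 and Mef2a had 1 each. The 2 of Mef2c lay in 940.7 kb of far sequence and had a highest signal of 0.460 in replicate 2 and 0.316 in replicate 1. None of the 14 urothelial surface and keratin genes was the nearest to any far sequence. Head and brain patterning factors, taken as a contrast, had a member at 3 of 9 genes (33.3%), against 57.6% of all genes. These held 9 members in all, at 2.16 per Mb, and 7 of the 9 were near Sox11. The genes of each list differ in how far their deserts reach, and density falls with distance, so the densities of lists were described and not tested.

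Between the libraries, most members kept their signal. The ratio of replicate 2 over replicate 1 was centred on its median over all shared regions, a log2 ratio of 0.15, and members had a centred median of 0.00 with an SD of 0.55. The counts at median signal would give an SD of 0.23. Across the 5938 members log signals correlated at 0.80 (Pearson) and 0.76 (Spearman), as a description of points that share libraries. In all, 358 members (6.03%) were more than 2-fold higher in replicate 2, against 4.59% of all shared regions, and 97 (1.63%) more than 2-fold lower, against 0.661%. Both shares exceeded the background, which includes promoters, at 0.453% higher and 0.241% lower. Nearer intergenic regions had 7.31% higher, more than the far regions, and 0.688% lower. Gene body regions had 5.68% and 0.757%. With 1 library on each side no test was possible.

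Members with a CTCF match leaned towards replicate 2. Those 323 members had a median signal of 1.38 in replicate 2 and 0.665 in replicate 1, a centred log2 ratio of 0.73, and 306 (94.7%) were above the centre. In nearer intergenic regions with a match it was 0.69. Of the 358 members more than 2-fold higher, 89 (24.9%) held a CTCF match and 19 (5.31%) an AP-1 match. None of the 97 more than 2-fold lower held CTCF, and 19 (19.6%) held AP-1. Without CTCF regions, 269 (4.79%) of the remaining members were more than 2-fold higher. YY1 regions, of which there were 60, had a centred median of 0.38, and AP-1 regions one of -0.12.

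**Figure D5:**
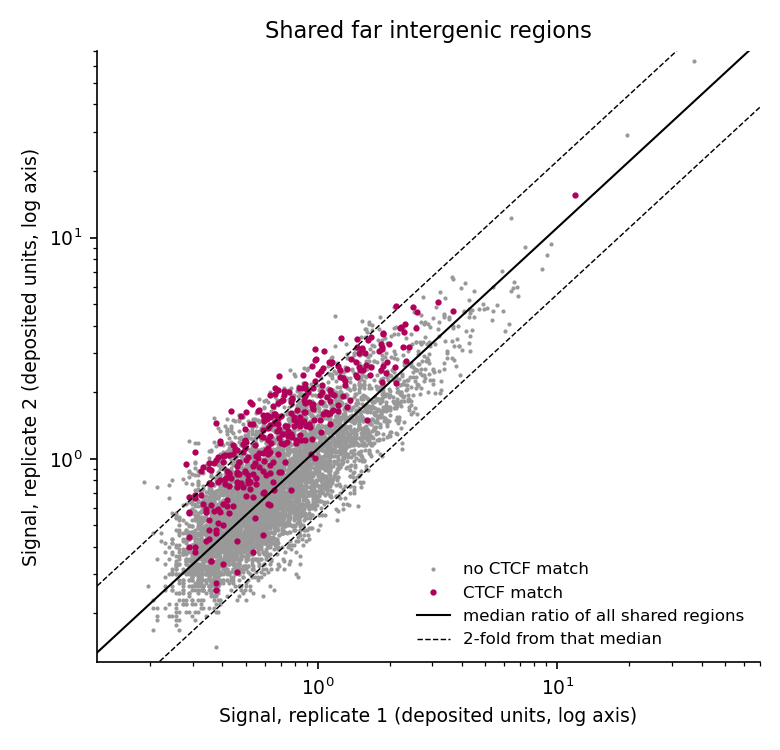
Signal of each of the 5938 far regions in replicate 2 (vertical) and replicate 1 (horizontal), both on log axes, with the median ratio of all shared regions (line) and 2-fold limits (dashes). Regions with a CTCF match (magenta) lie mostly above the line, 306 of 323.

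Single members differed by more. The largest ratio was at chr13:62007441-62007586 near Zfp808, with 0.786 in replicate 2 and 0.188 in replicate 1, and its central 36 bp occur 4 times in the assembly. Arhgef26, Wrn, Irx4 and Sdhaf3 had the next, each between 3.86 and 4.17 times higher before centring. The Irx4 region held a CTCF match, at 1.45 and 0.375. The smallest was near Sash1, chr10:9235741-9236040, with 0.292 in replicate 2 and 0.827 in replicate 1 and footprints in replicate 1 only. A CpG-rich region inside the lncRNA Gm20732, beside the member of rank 6, was next, then Gm10139, Nkx6-1 and Meis1, the last at 0.336 and 0.844.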

How the data were processed

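DNase-seq peaks, footprints and cut-rate stretches of 2 libraries were used as deposited, on mm10 per the labels. The aligner is not given in the sources used here, nor is the caller. The authors deposited peak signal as a scaled count: 100.0% of values were whole multiples of 0.00884 in replicate 2 and 0.00853 in replicate 1, within a tolerance of 0.02 steps, and the total depth is unknown. Replicate 2 had 109240 peaks, and replicate 1 82472, in the longer deposited lists on chromosomes 1 to 19. The deposited cut-rate files give a false discovery rate on the p-value scale, and the lowest was under 0.001 in 79.7% of members in replicate 2 and 64.4% in replicate 1. Of 13 urothelial marker genes, replicate 2 had a peak at the promoters of 12 and replicate 1 of 13. For smooth muscle markers it was 5 of 8 in replicate 2 and 8 of 8 in replicate 1, for fibroblast markers 6 of 6 in both, for central neuron markers 3 of 4 in both and for hepatocyte markers 1 of 4 in both.

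Overlapping peaks of a class were joined, and a region's signal in a library is its strongest peak. Footprints count when they overlap a region by 1 bp. Sequence came from GRCm38.p6, the assembly of mm10, and none is printed from chromosome 18. Members and gene lists were chosen with earlier results of these data known. Named members were the 10 strongest, the 5 largest and 5 smallest ratios, the farthest and those at the threshold, with the richest deserts and genes and the listed genes; the sequences, the RefSeq cases, the groups by rank and the YY1 value were chosen after values were seen. B6CASTF1/J mice carry CAST alleles, and their effect on alignment to mm10 was not tested. Scripts used Python 3.11.15, numpy 2.4.6, pandas 2.3.3 and scipy 1.17.1, and were tested on simulated data.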

Additional observations from a re-analysis of the deposited data

How the results depend on the processing

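The results given over all members were recomputed under 14 settings, 2 of them chosen after seeing the data. Of 115 such values, 70 moved by less than the limits used, a factor of 1.5 for counts and densities, 1 SD over libraries, or a 95% interval, and 45 moved by more. The CTCF share stayed below that of nearer intergenic regions in every setting in which the difference was recomputed. Only that difference could have changed sign, since the other values cannot be negative. With 50 kb in place of 100 kb there were 10028 members, 6.05% with CTCF and 17.4% in runs of at least 4. With 200 kb there were 2860, with 4.86% CTCF, 8.92% in runs, 2.83% masked, meaning masked as repeats over at least 50% of their length, and 4.09% at a lncRNA start. When every annotated gene counted, 736 regions met the rule, at 4.43 per Mb and a median signal of 0.565, with 3.40% in runs, 2.85% masked, 9.10% past 2-fold and a CTCF difference of -3.50 percentage points. The shorter lists gave 3178 members at 4.31 per Mb, a median signal of 0.965, a footprint in 93.5%, CTCF in 7.05% with a difference of -5.10 points, 6.95% past 2-fold, 1.67% masked, 5.98% at a lncRNA start and 5.95% in runs. Without centring 9.67% were past 2-fold. Whole regions in place of 150 bp gave AP-1 in 23.3%. Without members whose central 36 bp occur more than once, 1.56% were masked. The causes of these shifts were not tested.

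Each library on its own, without sharing, gave 11684 far peaks in replicate 2 and 7971 in replicate 1, at 15.9 and 10.8 per Mb, with median signals of 0.477 and 0.529 and footprints in 65.8% and 65.6%. The stricter list held 51.2% and 46.4%, CTCF was matched in 4.36% and 4.03%, AP-1 in 15.2% and 16.5%, and 4.81% and 6.70% were masked. A lncRNA start was near 4.15% and 4.64%, and 23.2% and 18.3% were in runs. The CTCF difference was -3.91 and -4.24 points. No paired analysis was possible because the series holds 1 group. The filter on masked regions was not run on the masked share, nor the shorter lists on the share in the shorter list, since both give a fixed value. Total depth is unknown, and 2 libraries limit every comparison to description.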
